A study of Mus musculus with 50 samples.

Results

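Liver gene expression was compared between pregnant mice given the higher and the lower dose of perfluorooctanoic acid (PFOA), a straight-chain perfluorinated carboxylic acid. The comparison set 5 arrays of dams at 5 mg/kg/day (PFOA5) against 5 arrays of dams at 1 mg/kg/day (PFOA1), which were 10 of the 50 arrays of the series and were chosen by sample title. All 30746 genes with a symbol in the platform annotation were tested, each through its brightest probe. The dams were CD-1 mice, an outbred stock, so the animals of a group are not genetically identical. They received the compound by gavage each day from embryonic day 1.5, and a piece of the left lateral liver lobe was frozen on gestational day 17.5. The 5 dams given the vehicle alone (0 mg/kg/day, called control) are used to describe levels, with no test. Dams given hexafluoropropylene oxide dimer acid (GenX), a shorter, branched ether acid, at 10 or 2 mg/kg/day (GenX10 and GenX2, 5 arrays each) share the estimate of the spread and supply a dose step of another compound. As far as the labels say, each array is a separate dam.

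PFOA is known as a ligand of the nuclear receptor PPARα, which in rodent hepatocytes switches on the genes of fatty acid uptake, ω-hydroxylation, and peroxisomal and mitochondrial β-oxidation. At sufficient exposure it is also known to activate CAR and PXR, the receptors behind many drug-metabolising enzymes and transporters. A further system, controlled by the transcription factor NRF2, covers glutathione and quinone metabolism and the export of conjugates. The comparison of doses asks which of these gene groups differ between livers that have both been exposed.

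Array values are log2 signals that the authors made with RMA, so a difference of 1 is a doubling of signal. Signals of different probes cannot be compared with each other. On each array the 95th percentile of the negative control probes (7.38 to 7.68 over the 10 arrays) served as background, and 5462 to 7490 genes per array lay above it. A gene at or below it on every array of a group is called not well above background there. For a gene that is dim in this way in 1 group a change is given as "at least" a fold, the brighter group's mean against the background level of the dim group, where that fold is above 1. Log2 differences that involve values at or below background are given as measured and carry no exact fold.

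The hepatocyte identity of the samples was checked first. The 14 hepatocyte markers averaged 11.95 to 12.12 per array in PFOA5 livers and 12.03 to 12.16 in PFOA1 livers. PFOA1 replicate 1 stood apart from the other 4 PFOA1 dams in many of the PFOA-responsive genes. Its *Ehhadh* signal was 10.54, against 11.94 to 12.36 in PFOA1 replicates 2 to 5 and 10.36 to 10.59 in control livers. Its *Cyp4a14* signal was 8.55, against 12.39 to 12.55 in the other 4. What set this dam apart was not tested. Of the 175 called genes named here, 14 lost their call without it, and 1 (*Cyp4a31*) moved by over 1.5 times; pathway counts without it are given in the text where they differ. "Without PFOA1 replicate 1" means the same fit with that array left out.

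Between the doses 3127 genes rose and 2618 fell in PFOA5 livers, 10.2% and 8.51% of the 30746 tested (limma, Benjamini-Hochberg adjusted p under 0.05, two-sided). Without PFOA1 replicate 1 the counts were 2816 and 2272 (9.16% and 7.39%), and 4607 genes were called in both fits, all of them with the same sign. Most changes were small: 4519 of the 5745 called genes differed by less than 0.5 on the log2 scale, 127 rose by more than a doubling and 71 fell by more than that. Most of the falls were in genes with little signal. Of the falls, 2047 were not well above background in either group, as were 719 of the rises. Among the 5848 genes above background on every array of at least 1 of the groups, 2003 rose and 419 fell. A gene could pass this filter through its brighter group alone. Background was 7.38 to 7.63 on PFOA5 arrays and 7.52 to 7.68 on PFOA1 arrays, so rises could pass more easily than falls. The number of falls rested on single arrays: it was 1328 without PFOA5 replicate 4, 1429 without PFOA1 replicate 4, 1502 and 1530 without PFOA5 replicates 1 and 2, and 1718 without PFOA1 replicate 3. With array weights falls outnumbered rises, 3800 genes being higher and 4275 lower. The split of calls also moved with scaling: after centring each array on its median 3774 genes rose and 1009 fell. The median difference over all genes was -0.06. It was 0.12 with dim genes left out, over the 6472 genes above background on at least 5 of the 10 arrays. The values below are to be read beside both medians. List counts are to be read beside the shares over all genes, 10.2% higher and 8.51% lower. Among genes above background rises were more common than that, as given above.

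**Figure D1:**
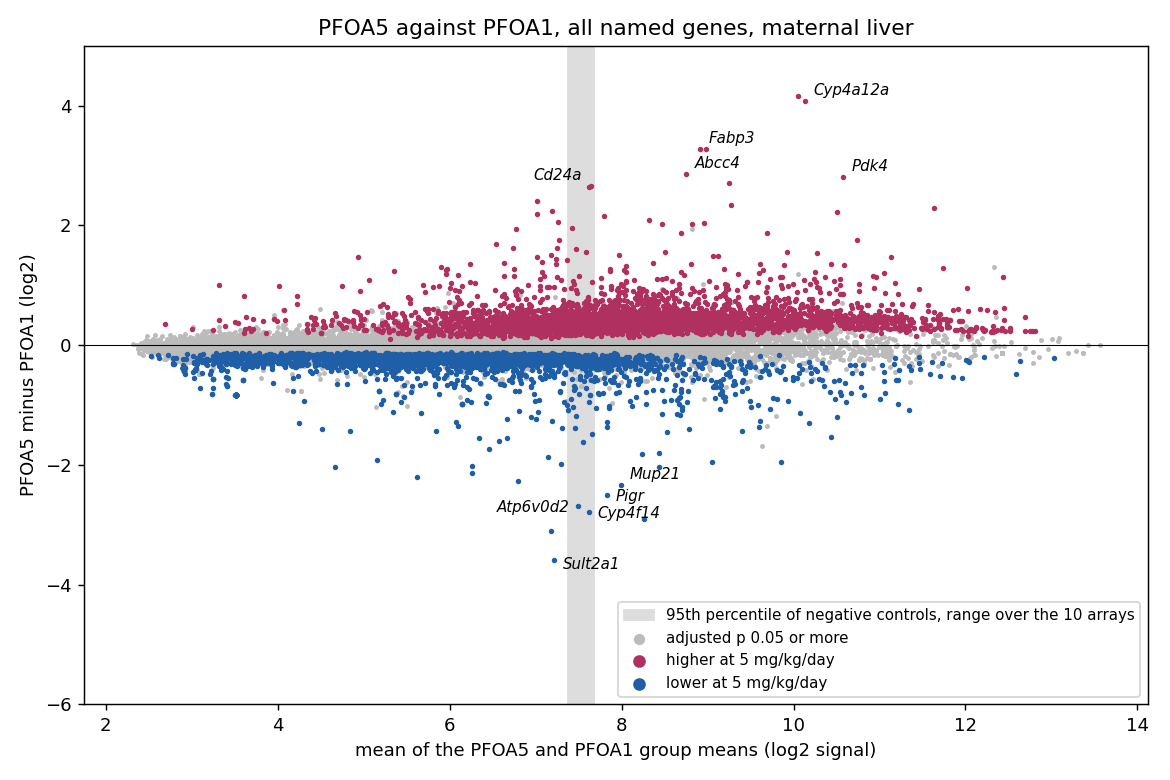
PFOA5 minus PFOA1 (log2, vertical axis) against the mean of both group means (log2 signal, horizontal axis) for all 30746 named genes, 5 arrays a group. Coloured points are the 3127 genes that rose and the 2618 that fell, and the grey band spans the background level of the 10 arrays (7.38 to 7.68). The falls lie mostly left of the band, and *Cyp4a12a* stands highest among the labelled genes at 4.08.

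Fatty acid ω-hydroxylation held the largest rises. The enzymes of the Cyp4a family add a hydroxyl group to the far end of fatty acids, and their genes lie side by side on chromosome 4. *Cyp4a12a* (chromosome 4, 115299046 to 115332815, build GRCm38.p6) read 12.14, 12.27, 12.06, 12.25 and 12.15 in PFOA5 livers, against 5.01, 10.92, 6.82, 7.23 and 10.48 in PFOA1 livers (replicates 1 to 5 in each). Control livers were at 5.04 ± 0.06 (mean ± SD, n = 5). All PFOA5 dams were alike, whereas the PFOA1 dams spread over almost the whole range from the control level upward: replicates 2 and 5 were far above background, replicates 3 and 4 below it, and replicate 1 at the control level. The difference was 4.08 ± 0.77 (log2, SE; adjusted p = 0.00059), and 3.31 without PFOA1 replicate 1 (adjusted p = 0.0017). The near-identical *Cyp4a12b* gave 4.16 ± 0.74 (adjusted p = 0.00034), and reads of probes shared by the copies cannot be told apart.

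*Cyp4a14*, its neighbour and the family member best known as a PPARα target, did not pass the test. It read 12.96, 13.07, 12.94, 13.03 and 12.96 in PFOA5 livers, against 8.55, 12.39, 12.41, 12.51 and 12.55 in PFOA1 livers. The groups did not overlap, and the PFOA1 dams other than replicate 1 were already close to the PFOA5 level, near the top of the array's range (the brightest gene averaged 13.55 over the maternal arrays). Control livers varied widely, at 8.78 ± 1.70. The difference of 1.31 ± 0.63 had an adjusted p of 0.14, and it was 0.53 without PFOA1 replicate 1.

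The other Cyp4a genes rose with smaller steps. *Cyp4a32* averaged 12.38 ± 0.07 in PFOA5 livers and 11.10 ± 0.84 in PFOA1 livers (SD, n = 5 each), a difference of 1.28, and *Cyp4a31* rose by 0.96; without PFOA1 replicate 1 the differences were 0.91 and 0.63. *Aldh3a2*, which oxidises the fatty aldehydes formed in this pathway, rose by 1.16. *Cyp4f14*, an ω-hydroxylase known in mouse for inactivating leukotriene B4, moved the other way. It read 6.16, 6.17, 6.29, 5.98 and 6.51 in PFOA5 livers, against 9.82, 9.03, 8.44, 8.46 and 9.32 in PFOA1 livers and 9.68 ± 0.16 in control livers. The PFOA5 values were all below background, so *Cyp4f14* was at least 2.8-fold lower in PFOA5 livers (log2 difference -2.79 ± 0.29, adjusted p = 6.1e-07). In all, 7 of the 12 measured ω-oxidation genes rose and 1 fell, counts that were the same without PFOA1 replicate 1.

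**Figure D2:**
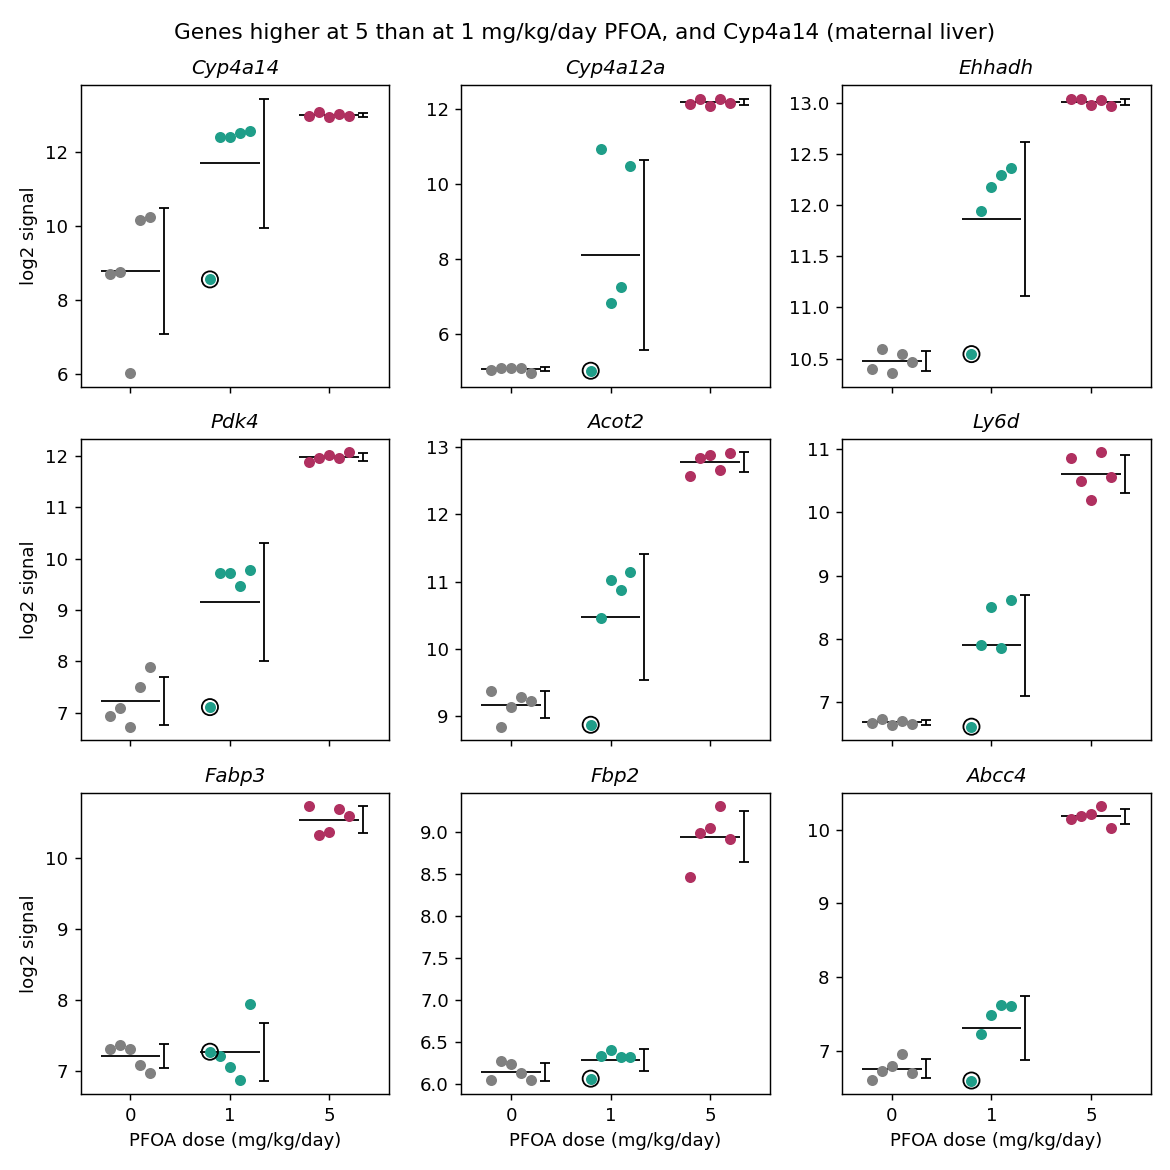
Signal of 9 genes on each array (log2, vertical axes differ and do not start at 0) by PFOA dose (0, 1 and 5 mg/kg/day). Points are dams, the circled point is PFOA1 replicate 1, lines are group means and error bars are SD (n = 5). *Cyp4a14*, *Cyp4a12a*, *Ehhadh*, *Pdk4*, *Acot2* and *Ly6d* lie above control in PFOA1 replicates 2 to 5, while 4 of the 5 PFOA1 dams in *Fabp3* and all 5 in *Fbp2* lie below background.

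Most genes of peroxisomal β-oxidation rose. Of 40 measured genes of peroxisomal oxidation and peroxisome formation, 32 rose and 0 fell, with a median difference of 0.54. The number of rises was 31 without PFOA1 replicate 1. *Ehhadh*, the bifunctional enzyme that carries out the middle steps of the cycle, read 13.03, 13.03, 12.97, 13.03 and 12.97 in PFOA5 livers, against 10.54, 11.94, 12.18, 12.29 and 12.36 in PFOA1 livers. The groups did not overlap, and PFOA5 dams differed from each other by less than 0.1. Its difference was 1.14 ± 0.20 (adjusted p = 0.00037), and 0.81 (adjusted p = 7e-07) without PFOA1 replicate 1. *Pex11a*, which acts in the division of peroxisomes, rose by 2.05 ± 0.21 (adjusted p = 5.9e-07). The thiolases *Acaa1a* and *Acaa1b* rose by 1.21 and 1.47 (1.07 and 1.14 without PFOA1 replicate 1), and *Crat*, which moves acetyl groups onto carnitine, rose by 1.06.

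The acyl-CoA thioesterases release free fatty acids from coenzyme A in different compartments: *Acot1* in the cytosol, *Acot2* in mitochondria, and *Acot3* and *Acot4* in peroxisomes. These 4 genes stand in a row on chromosome 12 and all rose. *Acot2* read 12.58, 12.84, 12.88, 12.67 and 12.92 in PFOA5 livers, against 8.87, 10.46, 11.02, 10.88 and 11.14 in PFOA1 livers. *Acot3* read 9.45, 9.42, 9.33, 9.66 and 9.58 in PFOA5 livers, against 6.53, 7.44, 8.08, 7.64 and 7.62 in PFOA1 livers. In both genes every PFOA5 dam was above every PFOA1 dam, and PFOA1 replicate 1 was the lowest. The differences were 2.30 ± 0.27 for *Acot2* (adjusted p = 3.3e-06), 2.22 ± 0.31 for *Acot1* (2.4e-05), 1.87 ± 0.16 for *Acot4* (3.8e-08) and 2.02 ± 0.19 for *Acot3* (1.4e-07). Without PFOA1 replicate 1 they were 1.90, 1.75, 1.70 and 1.79 in the same order. *Acot3* was above background on 2 of the 5 PFOA1 arrays. These genes are close copies of each other, so a probe set may read more than its own gene.

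The promoters of the 4 thioesterase genes are shown because the genes are neighbours and moved together. They span 64.6 kb of chromosome 12 on the plus strand (RefSeq, GRCm38.p6), and each sequence runs from 250 bases before the start site to 50 after it, 5′ to 3′. For *Acot4* the start site used lies inside the gene, whose annotated start is at 84037254, so its window does not cover the gene's first base. Capitals mark AGGTCA on either strand, the half-site that nuclear receptors of this class bind (TGACCT on the strand shown):
*Acot2* at chr12:83987611-83987910: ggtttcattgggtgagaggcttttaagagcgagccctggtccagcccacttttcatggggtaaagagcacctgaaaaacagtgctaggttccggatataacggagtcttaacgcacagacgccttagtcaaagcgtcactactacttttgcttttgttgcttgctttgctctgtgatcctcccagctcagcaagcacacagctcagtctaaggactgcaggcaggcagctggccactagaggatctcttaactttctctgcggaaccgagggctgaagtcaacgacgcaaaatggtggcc
*Acot1* at chr12:84009252-84009551: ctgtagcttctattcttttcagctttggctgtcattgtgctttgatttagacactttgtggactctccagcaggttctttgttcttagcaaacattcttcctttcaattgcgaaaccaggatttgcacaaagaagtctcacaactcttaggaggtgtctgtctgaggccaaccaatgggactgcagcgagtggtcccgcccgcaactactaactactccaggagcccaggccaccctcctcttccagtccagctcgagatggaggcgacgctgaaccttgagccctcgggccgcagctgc
*Acot4* at chr12:84038129-84038428: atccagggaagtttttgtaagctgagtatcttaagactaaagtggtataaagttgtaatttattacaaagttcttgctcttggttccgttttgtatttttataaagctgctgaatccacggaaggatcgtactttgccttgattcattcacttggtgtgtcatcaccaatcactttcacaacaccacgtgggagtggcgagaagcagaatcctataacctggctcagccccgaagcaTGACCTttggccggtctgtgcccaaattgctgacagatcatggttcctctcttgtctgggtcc
*Acot3* at chr12:84051894-84052193: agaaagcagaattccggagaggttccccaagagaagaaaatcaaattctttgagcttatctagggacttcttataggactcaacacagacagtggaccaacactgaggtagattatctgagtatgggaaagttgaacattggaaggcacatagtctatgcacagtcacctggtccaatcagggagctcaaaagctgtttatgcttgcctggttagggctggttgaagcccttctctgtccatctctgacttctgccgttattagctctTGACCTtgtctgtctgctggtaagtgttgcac
*Acot4* and *Acot3* hold 1 match each and *Acot2* and *Acot1* hold none. The half-site occurs in 16.3% of all 32851 promoters of the table. Its tandem form, a pair of AGGNCA half-sites with a single base between them, occurs in 0.451% of the 27025 genes with a promoter and in none of the 34 peroxisomal or 16 mitochondrial list genes among them, which says only that these letters are not in this window.

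Mitochondrial fatty acid oxidation rose in 17 of 20 measured genes and fell in 0 (median 0.88). Without PFOA1 replicate 1, 16 rose. *Slc22a5*, the carnitine transporter of the cell membrane, read 9.44, 9.23, 9.38, 9.44 and 9.36 in PFOA5 livers, against 6.65, 7.0, 7.34, 7.53 and 7.87 in PFOA1 livers and 6.93 ± 0.07 in control livers. The groups were separated by more than 1.3, and the difference was 2.09 ± 0.19 (adjusted p = 1e-07), with 1 of the 5 PFOA1 arrays above background. *Cpt1b*, the muscle form of the enzyme that loads fatty acids onto carnitine, read 8.27, 8.39, 8.24, 8.49 and 8.59 in PFOA5 livers. In PFOA1 livers it was not well above background, at 6.37, 6.36, 6.54, 6.46 and 6.50, as in control livers (6.36 ± 0.06). *Cpt1b* was thus at least 1.74-fold higher in PFOA5 livers (log2 difference 1.95 ± 0.21, adjusted p = 1e-06). *Cpt2* and *Hadha*, which act later in the same pathway, rose by 1.09 and 0.95.

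*Pdk4*, the kinase that shuts off pyruvate dehydrogenase when fatty acids are burnt, read 11.89, 11.96, 12.03, 11.95 and 12.07 in PFOA5 livers, against 7.11, 9.73, 9.72, 9.47 and 9.78 in PFOA1 livers. Control livers were at 7.23 ± 0.47. PFOA1 replicates 2 to 5 formed a tight middle level between control and PFOA5. The difference was 2.82 ± 0.33 (adjusted p = 3.8e-06), and 2.31 without PFOA1 replicate 1 (adjusted p = 1.2e-08). Subunits of the respiratory chain and ATP synthase rose by small amounts: 19 of 30 rose and 0 fell, with a median of 0.31 and a highest difference of 0.51 (*Cox7a2*). Without PFOA1 replicate 1, 13 rose.

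Genes of fatty acid uptake and lipid droplets rose in 22 of 32 cases and fell in 0 (median 0.63). Without PFOA1 replicate 1, 20 rose. *Fabp3*, the fatty acid binding protein of heart muscle, read 10.73, 10.32, 10.38, 10.69 and 10.60 in PFOA5 livers, against 7.27, 7.22, 7.06, 6.87 and 7.95 in PFOA1 livers. Control livers were at 7.21 ± 0.17. *Fabp3* was high in every PFOA5 dam and above background in only 1 of the 5 PFOA1 dams, replicate 5. Its difference was 3.27 ± 0.31 (adjusted p = 2.2e-07), and leaving out PFOA1 replicate 1 left it at 3.27. The probe set of the pseudogene *Fabp3-ps1*, a near copy, gave 3.27 ± 0.35 and may read the same transcript.

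*Cidec*, a protein that makes lipid droplets fuse, read 8.12, 8.45, 7.76, 8.66 and 8.55 in PFOA5 livers and was not well above background in PFOA1 livers (5.88 to 6.28), a rise of at least 1.63-fold (log2 difference 2.23 ± 0.28, adjusted p = 6.8e-06). The droplet coat gene *Plin2* rose by 1.20 ± 0.12 (adjusted p = 3.1e-07). *Pnpla2*, the lipase that opens stored triglyceride, rose by 1.27 ± 0.12 (3.1e-07), and *Lpin2*, a phosphatase of triglyceride synthesis, rose by 1.17 ± 0.11 (2.4e-07). *Vnn1*, the pantetheinase of the liver, rose by 1.34 and the fatty acid receptor *Cd36* by 1.02 (0.92 and 0.77 without PFOA1 replicate 1). *Vldlr*, a lipoprotein receptor not well above background in PFOA1 livers, was at least 1.4-fold higher (log2 difference 1.43).

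Synthesis of fatty acids and triglycerides rose in 13 of 26 genes and fell in 1 (median 0.36), with 12 rises without PFOA1 replicate 1. *Me1*, malic enzyme, which supplies NADPH, read 11.02, 11.05, 11.12, 10.90 and 11.11 in PFOA5 livers, against 9.41, 9.34, 9.62, 9.59 and 9.57 in PFOA1 livers. Its groups were wide apart, with a difference of 1.53 ± 0.23 (adjusted p = 4.7e-05). The acyltransferases *Gpam*, *Gpat3* and *Dgat1* rose by 0.78, 0.87 and 0.60, the last not well above background in PFOA1 livers. The desaturase *Scd1* rose by 0.60, whereas *Scd3* differed by 0.10 and was not well above background in either group. *Pnpla3*, a lipase-like droplet protein, was the member that fell. It was not well above background in PFOA5 livers, at least 1.1-fold lower (log2 difference -0.78).

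In cholesterol synthesis *Hsd17b7*, *Lss*, *Fdps*, *Hmgcs1* and *Fdft1* rose by 0.95, 0.72, 0.60, 0.41 and 0.25, which were 5 of 19 measured genes, and 0 fell. The fit without PFOA1 replicate 1 called 3 of them. The 5 of 19 were no larger a share than the 2003 rises among the 5848 genes above background. Among apolipoproteins and lipoprotein remodelling genes 5 of 18 rose and 4 fell, and these rises too were no larger a share than that. The phospholipid transfer protein *Pltp* rose by 0.89, the sterol exporters *Abcg5* and *Abcg8* by 0.68 and 0.56, the lipoprotein assembly factor *Mttp* by 0.47 and *Apoe* by 0.15. *Apoc3*, which slows triglyceride clearance, fell by 0.88, *Scarb1*, the HDL receptor, by 0.50, *Apom* by 0.45 and *Apoh* by 0.26.

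Targets of CAR and PXR were called in both directions. Of 23 measured genes 6 rose and 3 fell, and without PFOA1 replicate 1 only 2 rose and 2 fell. The 6 rises were no larger a share than the 2003 rises among the 5848 genes above background. Called or not, 19 of the 23 differences were above 0, and 13 of 23 had an unadjusted p under 0.05 in limma. Over all 30746 genes 10510 had such a p. The median was 0.33 (0.20 without PFOA1 replicate 1), against -0.06 over all genes and 0.12 with dim genes left out. *Cyp2b10*, the standard CAR target, read 10.89, 11.18, 11.07, 11.23 and 11.19 in PFOA5 livers, against 8.34, 9.99, 10.00, 10.23 and 10.23 in PFOA1 livers. Control livers were at 8.78 ± 0.85. The groups did not overlap, but without PFOA1 replicate 1 the difference of 1.35 (adjusted p = 0.022) became 1.00 with an adjusted p of 0.067. *Cyp2c55*, another CAR and PXR target, rose by 1.25 (adjusted p = 0.038; 0.11 without PFOA1 replicate 1). *Alas1*, also a gene of haem synthesis, had the smallest adjusted p of the list. It rose by 1.10 (adjusted p = 4.9e-05, and 0.00015 without PFOA1 replicate 1). The list's other rises are not named here. *Cyp3a11*, the standard PXR target, differed by 0.09 ± 0.13 (adjusted p = 0.66), with a 95% interval of -0.18 to 0.35. *Cyp2c38*, *Cyp3a16* and *Cyp2c39* fell by 1.07, 0.99 and 0.59, the second of these with an adjusted p of 0.06 without PFOA1 replicate 1.

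Of 23 measured NRF2 targets 14 rose and 0 fell, with and without PFOA1 replicate 1, and the median difference was 0.80. The median of PFOA1 minus control over the same genes was -0.05, a description only because both differences use the PFOA1 arrays. *Ugdh*, which makes the sugar donor for glucuronidation, read 9.53, 9.41, 9.46, 9.80 and 9.19 in PFOA5 livers, against 8.05, 7.54, 8.13, 8.59 and 8.33 in PFOA1 livers and 8.30 ± 0.11 in control livers. PFOA1 livers lay around the control level, PFOA5 livers above both, and the difference was 1.35 ± 0.20 (adjusted p = 4.5e-05). *Cbr1*, a carbonyl reductase, rose by 1.18 ± 0.15 (8.5e-06), and the peroxiredoxin-repair gene *Srxn1* by 0.82 ± 0.15 (0.00042). *Hmox1*, haem oxygenase, rose by 0.89 with 1 PFOA5 dam (replicate 3, 7.35) inside the PFOA1 range, and it was above background on 4 of 5 PFOA5 arrays and 1 of 5 PFOA1 arrays. *Nqo1*, the usual NRF2 reporter, averaged 7.20 ± 0.45 in PFOA5 livers and 6.34 ± 0.23 in PFOA1 livers, where it was not well above background, and differed by 0.86 ± 0.19 (adjusted p = 0.0028).

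The *Ugdh* promoter is shown as an example of this list, with capitals marking TGACNNNGC on either strand, the core of the antioxidant response element (RefSeq, GRCm38.p6, minus strand, chr5:65435793-65436092):
*Ugdh*: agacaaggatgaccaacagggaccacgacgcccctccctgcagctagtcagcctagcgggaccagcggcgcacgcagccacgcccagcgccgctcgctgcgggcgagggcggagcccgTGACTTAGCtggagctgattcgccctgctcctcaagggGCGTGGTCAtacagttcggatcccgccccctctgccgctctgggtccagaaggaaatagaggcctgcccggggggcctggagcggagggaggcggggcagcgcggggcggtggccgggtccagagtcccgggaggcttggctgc
It holds 2 matches. The motif occurs in 5 of the 19 list genes with a promoter in the table, and in 14% of all 27025 genes with one.

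Export pumps were higher in PFOA5 livers wherever they passed the test. *Abcc4*, a pump that moves conjugates from hepatocytes into blood, read 10.14, 10.19, 10.22, 10.31 and 10.03 in PFOA5 livers, against 6.60, 7.23, 7.49, 7.63 and 7.61 in PFOA1 livers and 6.76 ± 0.13 in control livers. No PFOA1 dam came within 2 of the PFOA5 range, and the difference was 2.86 ± 0.20 (adjusted p = 2.9e-09). Of the PFOA1 values 1 of 5 was above its array's background. *Abcc3*, a pump of the same membrane, rose by 2.35 ± 0.30 (9.5e-06). The pumps of the bile canaliculus *Abcg2*, *Abcb4* and *Abcc2* rose by 0.96, 0.81 and 0.64. In all 6 of 13 efflux genes rose and 0 fell, and 5 rose without PFOA1 replicate 1. The list median was -0.007, with 6 of 13 differences above 0, and 5 members were not well above background in either group.

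Of 9 measured uptake carriers 2 fell and 2 rose. *Slco1a1*, a carrier of organic anions, read 6.47, 6.70, 8.03, 8.01 and 7.87 in PFOA5 livers, against 9.38, 9.19, 9.37, 9.62 and 9.74 in PFOA1 livers. PFOA5 replicates 1 and 2 were lowest, and all 5 were below all PFOA1 dams (difference -2.04 ± 0.35, adjusted p = 0.00026). *Slc22a7*, an organic anion carrier, read 6.71, 6.18, 6.02, 5.98 and 6.15 in PFOA5 livers, against 8.07, 8.37, 8.42, 7.96 and 7.54 in PFOA1 livers. It was not well above background in PFOA5 livers, at least 1.46-fold lower (log2 difference -1.86 ± 0.23, adjusted p = 6.2e-06). The monocarboxylate carrier *Slc16a1* and *Slc22a15*, which was not well above background in either group, rose by 0.63 and 0.21. In *Slco1a1* and *Slc22a7* PFOA1 livers did not stand apart from control livers, at 9.49 ± 0.32 and 8.13 ± 0.32.

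Bile acid genes were mixed, with 2 of 13 higher and 4 lower (3 without PFOA1 replicate 1). The receptor FXR (*Nr1h4*) and the co-receptor *Klb* rose by 0.89 and 0.40. *Akr1d1* and *Baat* fell by 0.87 and 0.55. The FGF receptor *Fgfr4* was not well above background in PFOA5 livers, at least 1.03-fold lower (log2 difference -0.47). *Cyp7b1*, the hydroxylase of the alternative bile acid pathway, fell by 1.10 (adjusted p = 0.023, and 0.069 without PFOA1 replicate 1), and it was above background on 0 PFOA5 arrays and 2 of the 5 PFOA1 arrays. *Cyp7a1*, the rate-limiting enzyme of the main pathway, read 8.31, 8.50, 8.51, 8.59 and 8.68 in PFOA5 livers, against 9.24, 9.72, 8.90, 9.74 and 9.45 in PFOA1 livers. The groups did not overlap, but the spread over all 5 maternal groups left the difference of -0.89 ± 0.52 with an adjusted p of 0.23. With the spread taken from the PFOA5 and PFOA1 arrays alone its adjusted p was 0.002.

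Sulfotransferases, which attach sulfate to steroids, bile acids and phenols, fell in 10 of 18 cases and rose in 1 (median -0.74), with 9 falls without PFOA1 replicate 1. Of the 18, 9 were not well above background in either group. *Sult2a1* (chromosome 7) read 8.87, 6.02, 3.71, 3.52 and 5.00 in PFOA5 livers, against 9.14, 5.59, 10.27, 10.86 and 9.19 in PFOA1 livers, and 9.63 ± 0.37 in control livers. The dams of both doses overlapped: PFOA5 replicate 1 was near the control level and PFOA1 replicate 2 among the low PFOA5 dams. Its difference was -3.59 ± 1.12 (adjusted p = 0.028), which is large but imprecise, and leaving out any of PFOA1 replicates 3 or 4 or PFOA5 replicates 3, 4 or 5 gave an adjusted p between 0.053 and 0.083, and array weights one of 0.058. The neighbouring, similar genes *Sult2a2* and *Sult2a5* showed the same dams as exceptions, with differences of -3.11 ± 0.93 and -2.21 ± 0.66. *Sult3a1* on chromosome 10 fell by 2.90 (adjusted p = 0.034), and its adjusted p was 0.083 without PFOA1 replicate 1. *Sult1a1*, the phenol sulfotransferase, differed more evenly, at 10.15 ± 0.32 in PFOA5 livers and 10.93 ± 0.10 in PFOA1 livers (difference -0.78 ± 0.12, adjusted p = 8.4e-05). The member that rose, *Sult1c2* (0.99), was not well above background in either group.

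**Figure D3:**
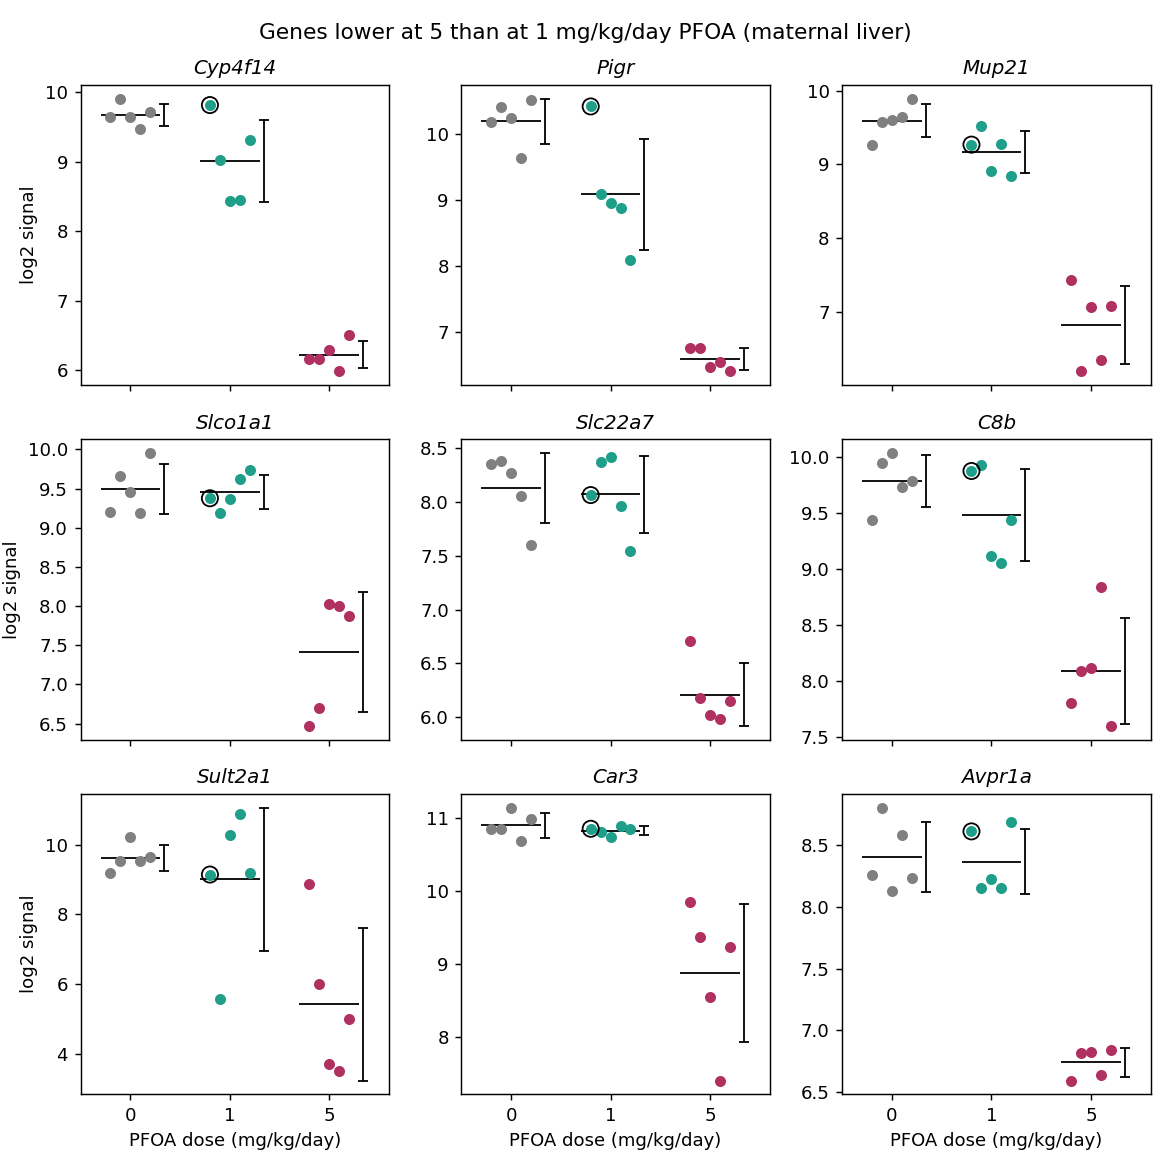
Signal of 9 genes on each array (log2, vertical axes differ and do not start at 0) by PFOA dose (0, 1 and 5 mg/kg/day). Points are dams, the circled point is PFOA1 replicate 1, lines are group means and error bars are SD (n = 5). In *Slco1a1*, *Slc22a7*, *Car3* and *Avpr1a* the PFOA1 means lie within 0.1 of the control means and every PFOA5 dam lies below every PFOA1 dam, while in *Sult2a1* the doses overlap.

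Many genes of complement and coagulation, both made up of plasma proteins from the liver, were lower in PFOA5 livers. Of 21 measured complement genes 14 fell and 0 rose, with and without PFOA1 replicate 1 (median -0.60). *C8b*, a component of the pore-forming complex, read 7.80, 8.08, 8.12, 8.84 and 7.60 in PFOA5 livers, against 9.88, 9.93, 9.12, 9.05 and 9.44 in PFOA1 livers. All PFOA5 dams were below all PFOA1 dams, PFOA5 replicate 4 by the smallest margin, and the difference was -1.40 ± 0.24 (adjusted p = 0.0002). *Mbl2*, the mannose-binding lectin, fell by 1.20 (adjusted p = 1.6e-05), and *C4b* by 0.90 (0.0001). *C1s1* and *C1s2*, near-identical genes of the first complement protease, gave -1.81 ± 0.34 and -1.82 ± 0.35, and *C4a* and *C4b* are likewise close copies. Coagulation genes fell in 14 of 22 cases and rose in 0 (median -0.27), with 11 falls without PFOA1 replicate 1. Factor XI (*F11*) averaged 8.68 ± 0.29 in PFOA5 livers and 10.12 ± 0.30 in PFOA1 livers, a difference of -1.44 (adjusted p = 3.5e-05), and *F10*, *Serpinf2* and *Serpind1* fell by 0.55, 0.51 and 0.47.

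Acute phase proteins had 6 lower and 3 higher genes of 21. *Il1rn*, the interleukin 1 receptor antagonist, read 7.70, 8.34, 8.17, 7.77 and 8.63 in PFOA5 livers, against 5.64, 5.71, 5.86, 6.14 and 6.26 in PFOA1 livers, where it was not well above background (at least 1.44-fold higher, log2 difference 2.20 ± 0.24, adjusted p = 1.1e-06). The iron carrier *Lcn2* and metallothionein *Mt1* rose by 0.68 and 0.56, while *Serpina3n*, *Saa4* and *Crp* fell by 0.39, 0.42 and 0.42. *Hamp*, the iron hormone hepcidin, varied from 7.64 to 11.44 in PFOA5 livers and from 7.82 to 12.16 in PFOA1 livers, and its difference of -1.35 ± 0.67 did not pass (adjusted p = 0.16). Ferritin genes *Ftl1* and *Fth1* rose by 0.58 and 0.27, and *Alas1*, the gatekeeper of haem synthesis, by 1.10. Of 18 measured genes of iron handling and haem synthesis 3 rose and 2 fell (0 falls without PFOA1 replicate 1). The falls, of 0.35 and 0.24, were in haem synthesis enzymes. *Rsad2* was the only interferon-response gene of 20 that passed, at 1.04, and it was not well above background in either group.

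*Pigr*, which transports polymeric antibodies across hepatocytes, read 6.76, 6.75, 6.46, 6.54 and 6.40 in PFOA5 livers, against 10.41, 9.09, 8.95, 8.87 and 8.09 in PFOA1 livers and 10.19 ± 0.34 in control livers. PFOA1 replicate 1 was at the control level, the other PFOA1 dams in between, and every PFOA5 dam below background, at least 2.94-fold lower than PFOA1 (log2 difference -2.50 ± 0.34, adjusted p = 2e-05). *Car3*, a carbonic anhydrase abundant in hepatocytes, spread over 9.85, 9.37, 8.54, 7.40 and 9.24 in PFOA5 livers, against 10.85, 10.81, 10.74, 10.89 and 10.85 in PFOA1 livers. The PFOA5 dams spread widely, the SD being 0.95 in PFOA5 livers and 0.06 in PFOA1 livers (difference -1.95 ± 0.30, adjusted p = 8.5e-05). *Atp6v0d2*, a subunit of the vacuolar proton pump, was at least 2.48-fold lower (log2 difference -2.69 ± 0.45, adjusted p = 0.00017). *Gulo*, the last enzyme of ascorbate synthesis, fell by 1.54 (1.2e-06), and the vasopressin receptor gene *Avpr1a* was at least 1.79-fold lower (-1.62 ± 0.15, adjusted p = 1e-07).

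Genes that depend on growth hormone and differ by sex fell in 8 of 19 cases (7 without PFOA1 replicate 1) and rose in 1, which was *Igfbp2* (0.30; adjusted p = 0.087 without PFOA1 replicate 1). The major urinary protein gene *Mup21* read 7.44, 6.20, 7.07, 6.35 and 7.09 in PFOA5 livers, against 9.27, 9.52, 8.91, 9.28 and 8.85 in PFOA1 livers. PFOA5 values were not well above background, at least 3.11-fold lower (log2 difference -2.34 ± 0.36, adjusted p = 7.9e-05), and *Mup3* fell by 1.96. Mup genes are close copies, so their probe sets may read several of them. *Cyp4a12a*, known as male-biased in mouse but not on this list, rose. The male-biased *Mup21* and *Mup3* and the female-biased *A1bg* (difference -1.31) were lower, and a division by sex was not tested. *Igfals*, which binds IGF1 in plasma, fell by 0.79 and *Egfr* by 0.61.

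Genes of both ends of the liver lobule changed. Of 13 genes of the zone around the central vein 6 fell and 1 rose, and of 10 periportal genes 3 fell and 2 rose (3 without PFOA1 replicate 1). The glutamate carrier *Slc1a2* read 6.42, 5.36, 5.30, 5.40 and 5.35 in PFOA5 livers, against 8.66, 6.43, 6.80, 6.72 and 6.99 in PFOA1 livers. Control livers were at 8.59 ± 0.13, the level of PFOA1 replicate 1, while the other PFOA1 dams and all PFOA5 dams were below background (difference -1.55 ± 0.32, adjusted p = 0.0015, and -1.17 without PFOA1 replicate 1). *Lect2*, a secreted protein, was at least 1.38-fold lower (-1.38 ± 0.16, adjusted p = 1.9e-06). The periportal *Hal*, which starts histidine breakdown, fell by 1.07, whereas *Hsd17b13* and *Arg1* rose by 0.81 and 0.37. In whole liver, fewer cells of a zone or type and less RNA per cell cannot be told apart.

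In amino acid metabolism 6 of 27 genes fell (5 without PFOA1 replicate 1), among them *Otc* of the urea cycle (-0.90) and *Cbs* (-0.69), and *Arg1*, *Tdo2* and *Slc25a13* rose by 0.37, 0.49 and 0.50, with 4 rises without PFOA1 replicate 1. The shares were 22.2% lower and 11.1% higher, against 8.51% and 10.2% over all genes. The rises were a smaller share than the 2003 rises among the 5848 genes above background. In glucose metabolism *Ppp1r3c*, a subunit that brings a phosphatase to glycogen, read 7.26, 7.50, 6.93, 6.84 and 7.25 in PFOA5 livers, against 8.48, 8.40, 8.64, 8.18 and 8.88 in PFOA1 livers. It was at least 1.98-fold lower (-1.36 ± 0.16, adjusted p = 4.8e-06), and the related *Ppp1r3b* fell by 0.81. *Pklr*, *Ppargc1a* and *Pygl* fell by 0.58, 0.55 and 0.32, and *Ppargc1a* and the rising *Ppp1r3g* were not well above background in either group. *Pdk4*, *Pdk2*, *Ppp1r3g* and *Pcx* made up the 4 rises, the call of *Pdk2* being lost without PFOA1 replicate 1 (adjusted p = 0.081). *Fbp2*, the muscle form of fructose bisphosphatase, was not on that list and was among the largest rises: 8.46, 8.98, 9.05, 9.30 and 8.92 in PFOA5 livers, against 6.07, 6.34, 6.41, 6.33 and 6.32 in PFOA1 livers, at least 2.54-fold (2.65 ± 0.17, adjusted p = 8.4e-10).

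Of 13 carboxylesterases 4 fell and 1 rose, and the median was 0.22, with 8 of 13 differences above 0. The falls were *Ces3b* (-1.17), *Ces3a* (-0.83), *Ces1c* (-0.79) and *Ces1b* (-0.65), the last with an adjusted p of 0.066 without PFOA1 replicate 1. The rise was in *Ces4a*, which was not well above background. Of 14 aldehyde dehydrogenases *Aldh9a1*, *Aldh5a1* and *Aldh1a1* rose by 0.72, 0.61 and 0.56, and *Aldh1a3*, not well above background in either group, fell by 0.16. These rises were no larger a share than the 2003 rises among the 5848 genes above background. Of 20 genes of the unfolded protein and integrated stress responses 6 fell and 1 rose (5 falls without PFOA1 replicate 1), and 13 did not pass. The falls included *Creld2*, *Sdf2l1*, *Hyou1* and *Herpud1*, by 0.82, 0.68, 0.61 and 0.59. *Trib3*, a pseudokinase of the integrated stress response, was the member that rose. It was not well above background in PFOA1 livers, at least 1.29-fold higher (log2 difference 1.07). Cell cycle genes gave 8 falls and 0 rises of 30 (3 falls without PFOA1 replicate 1). Of the 30 genes 27 were not well above background in either group, *Ccne2*, *Cdk1*, *Mcm5*, *Tk1* and *Bub1b* among them.

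Clock genes changed in both directions. The repressors *Nr1d1* and *Nr1d2* were higher, and *Nr1d1* read 9.11, 8.68, 7.90, 8.97 and 8.97 in PFOA5 livers, against 7.70, 7.77, 7.20, 6.72 and 6.72 in PFOA1 livers. All PFOA5 dams were above all PFOA1 dams (difference 1.50 ± 0.34, adjusted p = 0.0032), and *Nr1d2* rose by 0.92 ± 0.16 (0.00038). Of the 5 PFOA1 arrays *Nr1d1* was above background on 2 and *Nr1d2* on 1. The activators *Arntl* and *Npas2*, known to be repressed by those proteins, fell by 0.82 (0.00061) and 1.03 (0.00016), *Npas2* being not well above background in PFOA5 livers (at least 1.34-fold lower). *Arntl* read 6.90, 7.77, 7.76, 6.95 and 7.27 in PFOA5 livers, against 8.28, 8.13, 8.06, 7.98 and 8.28 in PFOA1 livers. Among PFOA5 dams, replicates 2 and 3 were closest to the PFOA1 level of *Arntl*. *Cry1* and *Nfil3* fell by 0.68 and 0.35 and *Dbp* and *Per3* rose by 0.44 and 0.23, which made 4 rises and 4 falls of 17 genes. *Cry1* and *Per3* were not well above background in either group, *Nfil3* in PFOA5 livers and *Dbp* in PFOA1 livers. The labels used here give no killing hour for the dams, and the part of the time of day in these differences was not tested.

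Of the receptors behind these gene groups, *Ppara* differed by 0.09 ± 0.13 (adjusted p = 0.64) and CAR (*Nr1i3*) by 0.13 ± 0.11 (0.4), with 95% intervals of -0.18 to 0.37 and -0.09 to 0.35. PXR (*Nr1i2*) rose by 0.73, FXR by 0.89, and the fasting-related factor *Creb3l3* by 0.45. *Fgf21*, a hormone induced by PPARα, differed by 0.24 ± 0.38 (0.68), and its values overlapped between the doses, at 8.77, 9.26, 8.70, 8.53 and 9.13 in PFOA5 livers and 7.64, 9.75, 8.90, 7.97 and 8.92 in PFOA1 livers. *Fabp5*, a binding protein of skin and fat, differed by 0.26 ± 0.16 (0.25) and was not well above background in PFOA1 livers. Other large rises included *Ly6d*, an anchored surface protein (2.72 ± 0.29, adjusted p = 7.8e-07), *Cd24a*, a surface glycoprotein (at least 2.59-fold, 2.66 ± 0.22, 3.8e-08), and the keratin *Krt23* (at least 1.54-fold, 2.41 ± 0.38, 0.0001). *Cxcr1*, a chemokine receptor, and *Myc*, the growth regulator, were chosen after their values were seen. *Cxcr1* was at least 1.46-fold higher (log2 difference 1.75 ± 0.10), and *Myc*, above background on 1 of the 5 PFOA1 arrays, rose by 1.05 ± 0.09.

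**Figure D4:**
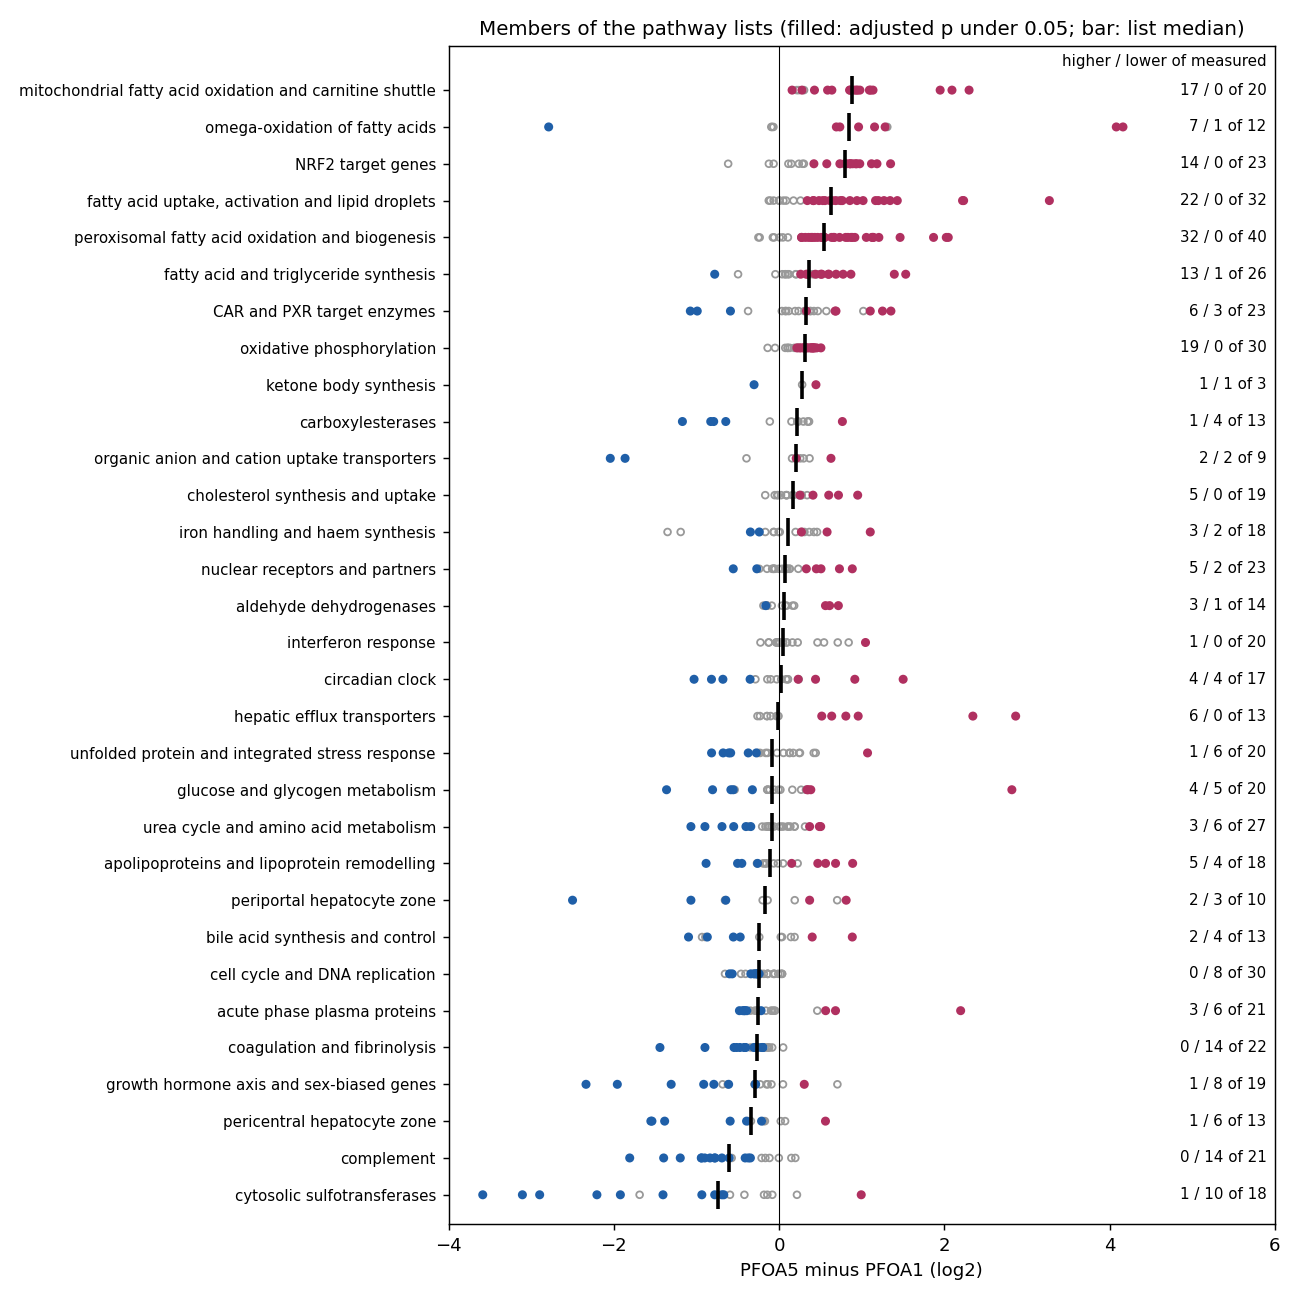
PFOA5 minus PFOA1 (log2, horizontal axis) of each measured member of the 31 pathway lists (vertical axis), with filled points where the adjusted p was under 0.05 and a bar at each list's median. Numbers at the right are members higher and lower of those measured. The lists run from mitochondrial oxidation (17 of 20 higher) at the top to complement (14 of 21 lower) and sulfotransferases (10 of 18 lower) at the bottom, and the median of all genes was -0.06.

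Few markers of other cell types passed the test. Of the 16 macrophage and Kupffer cell markers *Cd14*, the co-receptor for bacterial lipopolysaccharide, passed and no other did. It was not well above background in PFOA1 livers, at least 1.16-fold higher (log2 difference 1.14). The median difference of that list was 0.32, against -0.06 over all genes, with 15 of 16 differences above 0 and 5 of 16 at an unadjusted p under 0.05. The median was 0.21 without PFOA1 replicate 1. Its mean level was 6.74 to 7.46 per array in PFOA5 livers and 6.67 to 7.14 in PFOA1 livers. No marker of endothelium (10 measured), bile duct (6), erythroid cells (6), pancreatic acini (8) or fetal liver (5) passed limma's adjusted threshold, and 5 of these 35 had an unadjusted p under 0.05. These 5 of 35 and the 5 of 16 macrophage markers are smaller shares than the 10510 of all 30746 genes with such a p. *Reln* and *Des* of stellate cells fell by 0.41 and 0.27, *Klrb1c* of lymphocytes by 0.26 and *Ly6g* of neutrophils by 0.44, the last 3 not well above background in either group. The fat cell genes *Fabp4* and *Pparg* rose by 0.77 and 0.51, *Fabp4* being not well above background in PFOA1 livers and *Pparg* in either group. The calls of *Reln* and *Fabp4* were lost without PFOA1 replicate 1 (adjusted p = 0.086 and 0.08). Of the hepatocyte markers *Asgr1*, the receptor for asialoglycoproteins, fell by 0.47. The part of changes in cell makeup in the results above was not tested.

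The last comparison asked whether the step between the doses was of the same size for PFOA and GenX. Each step is 5-fold in dose, but the doses are not matched, so levels under the compounds are not compared, and the test is of PFOA5 minus PFOA1 against GenX10 minus GenX2. The steps differed in 71 genes (0.231% of those tested): 59 with a higher step for PFOA (0.192%) and 12 with a lower one (0.039%). Of the 71 genes 69 were also called between the PFOA doses, against 18.7% of all genes. The tested difference contains the PFOA step, so this overlap is no separate result. Of the same 71 genes 22 were not well above background in either PFOA group, and the count depended on the arrays used. *Abcc4* gave 2.86 ± 0.20 for PFOA and 1.09 ± 0.20 for GenX, a difference of steps of 1.77 ± 0.28 (adjusted p = 0.006). *Acot3*, *Slc22a5*, *Il1rn* and *Prss8*, the last a membrane protease, followed with 1.70 ± 0.26 (0.006), 1.40 ± 0.27 (0.031), 1.67 ± 0.34 (0.036) and 1.26 ± 0.27 (0.049). The peroxisomal *Acot4* gave 1.26 ± 0.22 (0.018), the mitochondrial *Cpt2* 0.74 ± 0.15 (0.038) and *Hadha* 0.61 ± 0.13 (0.046), *Plin2* 0.79 ± 0.17 (0.038) and the clock repressor *Nr1d2* 1.11 ± 0.23 (0.038). *Myc* and *Cxcr1* gave 0.70 ± 0.12 (0.019) and 0.82 ± 0.14 (0.016).

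On the other side *Avpr1a* stepped by -1.62 ± 0.15 for PFOA, with a GenX step of -0.16 ± 0.15, and the difference was -1.46 ± 0.21 (adjusted p = 0.0027). *Ppp1r3c*, *Gulo* and *Nrn1*, a neurite protein, gave -1.25 ± 0.23 (0.024), -1.20 ± 0.24 (0.032) and -1.10 ± 0.23 (0.038), *Cry1* gave -0.67 ± 0.14 (0.038) and *Tmem160* -0.41 ± 0.08 (0.037). In several of the genes with the widest PFOA steps no difference from GenX was detected. *Cyp4a12a* stepped by 1.76 ± 0.77 for GenX, with a difference of 2.33 ± 1.08 (0.44), and *Fabp3* by 2.10 ± 0.31, with 1.17 ± 0.44 (0.3). *Mup3* stepped by -2.07 ± 0.26 for GenX and -1.96 ± 0.26 for PFOA, a difference of 0.12 ± 0.37 (0.92). *Ly6d* stepped by 1.90 ± 0.29 for GenX, with a difference of 0.82 ± 0.41 (0.47). Of the 18 genes named with differing steps, 10 lost the call without PFOA1 replicate 1 (adjusted p 0.052 to 0.088), namely *Cpt2*, *Cry1*, *Gulo*, *Hadha*, *Il1rn*, *Nr1d2*, *Nrn1*, *Plin2*, *Prss8* and *Tmem160*. Without GenX10 replicate 2 the count was 17 and without GenX2 replicate 4 it was 339, and without PFOA1 replicate 1 it was 32, so the count rests on few arrays, and a p above the threshold does not show equal steps.

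**Figure D5:**
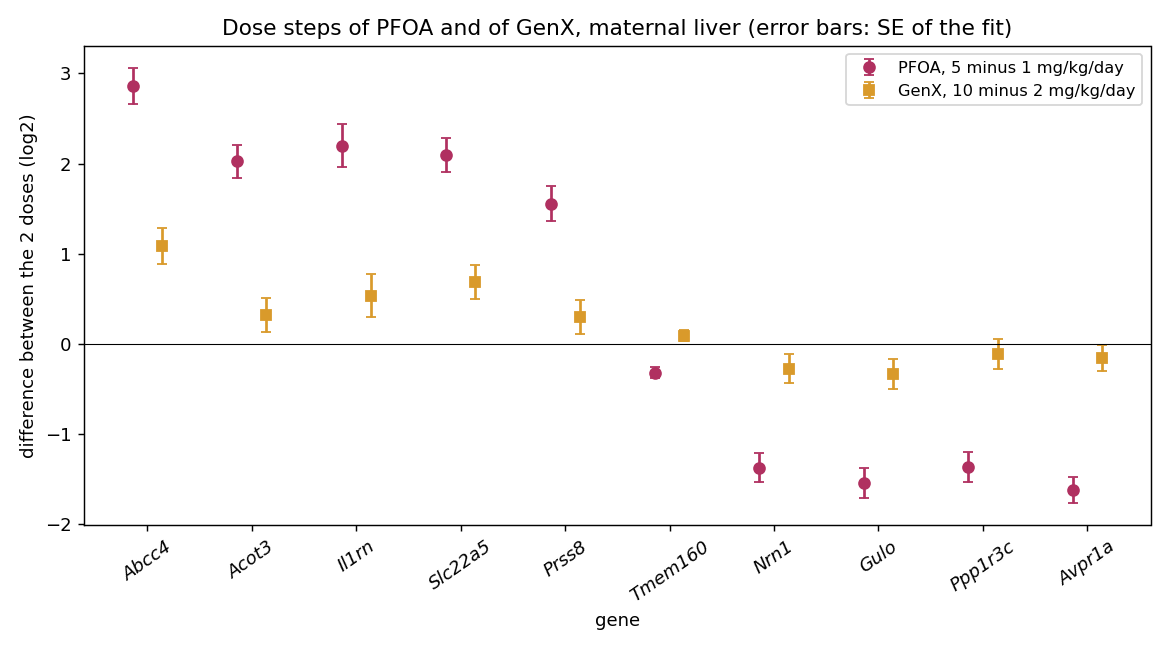
Difference between the higher and the lower dose (log2, vertical axis) for PFOA (circles) and GenX (squares) in the 5 genes with a higher and the 5 with a lower PFOA step that the naming rule selects (horizontal axis). Error bars are the SE of the fit, 5 arrays a group. *Abcc4* stepped by 2.86 with PFOA and 1.09 with GenX, and *Avpr1a* by -1.62 and -0.16.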

How the data were processed

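RNA of maternal liver was hybridised to a mouse whole-transcript array, and the authors deposited RMA values on the log2 scale. RMA and build mm10 are named in the submitters' processing notes. Versions are not given in the sources used here. Of 72688 features 6732 were controls. The platform annotation names genes for 32750 features: 30604 had 1 symbol, 615 several symbols of 1 gene, and 1531 with several genes were left out. A further 34737 features had no name there. Symbols were updated through gene IDs (874 changed), and each of 364 genes with several probes was represented by its brightest. limma 3.58.1 (R 4.3.3) fitted 1 model to the 25 maternal arrays, with 20 residual degrees of freedom. Figures and tables used Python 3.11.15, pandas 2.3.3, numpy 2.4.6 and matplotlib 3.10.9.

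Calls required a two-sided Benjamini-Hochberg adjusted p under 0.05 over all 30746 genes, and intervals are at 95%. The limma script was tested on simulated data. The number of arrays and signals near background limit the precision. The p-values set each difference against the spread within groups, pooled over the 25 maternal arrays. The members and lists were chosen with earlier results of these data known. Genes were named by rule: the 12 largest rises and 12 largest falls called with and without PFOA1 replicate 1 and above background, up to 5 called members per pathway list, up to 2 per marker list, the 5 largest differences of dose steps each way, and anchor genes. Further genes were chosen after their values were seen: *Cyp3a16*, *Nfil3*, *Per3*, *Dbp*, *Igfbp2*, *Mt1*, *Pnpla3*, *Scarb1*, *Apom*, *Apoe*, *Abcg8*, *Tdo2*, *Pklr*, *Pygl*, *Pcx*, *Pdk2*, *Hamp*, *Myc*, *Cxcr1*, *Cyp7b1*, *Otc*, *Vldlr* and *Hmox1*. Alternatives were other sets of groups, moderation, dim genes left out, repeated normalization or centring, averaged probes, array weights, a minimum fold of 1.5, a replicate block and each array left out. Ages, killing times and array batches were not used here.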

Additional observations from a re-analysis of the deposited data

Results flagged for a closer look

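Among the 184 genes named, 3 groups each were searched for a dam standing far from the other 4 (gap to the nearest over the range above 0.71), which chance gives in about 1 of 20 groups. Of 552 groups searched 37 held such a dam, and 16 of the 37 were PFOA1 replicate 1. This dam was the lowest of its group in the following signals: *Cyp4a14* 8.55, *Cyp4a31* 10.22, *Cyp4a32* 9.61, *Ehhadh* 10.54, *Acaa1a* 8.46, *Acaa1b* 9.11, *Acot1* 7.51, *Pdk4* 7.11, *Vnn1* 8.22, *Cd36* 9.26, *Pltp* 8.79, *Abcg5* 7.65, *Abcg8* 8.28, *Cyp2b10* 8.34 and *Fbp2* 6.07. In *Slc1a2* it was the highest, at 8.66.

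The other PFOA1 dams standing apart were replicate 4 in *Dgat1* (6.77, lowest), *Reln* (7.56, lowest) and *Lpin2* (8.17, highest), and replicate 5 in *Pnpla3* (7.23, lowest). Among PFOA5 dams, replicate 1 was highest in *Slc1a2* (6.42), *Slc22a7* (6.71) and *Sult2a5* (6.47), all genes that were lower in PFOA5 livers. PFOA5 replicate 2 was lowest in *Acot4* (9.51), replicate 3 lowest in *Pex11a* (9.87) and highest in *Klrb1c* (4.45), and replicate 4 highest in *Hadha* (11.52). Control replicate 4 stood apart in *Cbr1* (8.60), *Krt23* (5.26), *Lect2* (8.0) and *Ly6g* (5.99), where it was highest, and in *Ces3b* (9.02), where it was lowest. Other control dams did so in *Atp6v0d2* (9.70), *Hsd17b13* (9.47) and *Sult1a1* (10.89), each the highest, and in *Cyp3a16* (11.48) and *Npas2* (7.72), each the lowest.

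The dose step of PFOA was tested against that of GenX, and 18 of the named genes differed. PFOA minus GenX was positive in *Abcc4* (1.77), *Acot3* (1.70), *Il1rn* (1.67), *Slc22a5* (1.40), *Acot4* (1.26), *Prss8* (1.26), *Nr1d2* (1.11), *Cxcr1* (0.82), *Plin2* (0.79), *Cpt2* (0.74), *Myc* (0.70) and *Hadha* (0.61). It was negative in *Avpr1a* (-1.46), *Ppp1r3c* (-1.25), *Gulo* (-1.20), *Nrn1* (-1.10), *Cry1* (-0.67) and *Tmem160* (-0.41).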

How the results depend on the processing

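Of the 222 genes followed, the minimum fold of 1.5 removed the call of 158 and each other alternative that of 0 to 23, and 0 called changes turned in direction. With dim genes left out 6472 genes were tested, 2803 were called, 2259 higher and 544 lower, and 122 dose steps differed. Centring arrays on their medians gave 3774 higher and 1009 lower genes (78.9% higher, against 54.4%). Array weights gave 3800 higher and 4275 lower genes and 372 differing steps. A minimum fold of 1.5 left 73 genes, 53 higher and 20 lower, and 0 differing steps by limma's treat (55 at an unadjusted p under 0.05), against 71 by the plain test. Only the groups compared gave 16 differing steps. The cause of these shifts was not tested beyond the smaller set of genes or the stricter threshold itself.

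The replicate block called 3095 genes higher and 2807 lower, with 34 differing steps. The numbers do not pair the dams: correlations of same-numbered PFOA5 and PFOA1 deviations were 0.016, 0.170, -0.187, -0.0926 and -0.161, and no replicate number correlated best with itself, so the block result is only recorded.

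Leaving out 1 array gave 3633 (PFOA5 replicate 4) to 6714 (PFOA5 replicate 3) changed genes, 2305 to 3483 higher and 1328 to 3231 lower. The lower count fell by over 1.5 times without PFOA5 replicate 1 (1502), 2 (1530) or 4 (1328), or PFOA1 replicate 3 (1718) or 4 (1429). Differing steps ranged from 17 (without GenX10 replicate 2) to 339 (without GenX2 replicate 4), with 210 without GenX10 replicate 1, and 20 to 47 without PFOA5 replicate 2, 4 or 5 or any of PFOA1 replicates 1 to 4, or 24 to 40 without GenX2 replicate 1 or 3 or GenX10 replicate 3, 4 or 5. Of the 22819 genes not well above background in either group 719 were called higher and 2047 lower, and their signals carry less certain sizes.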
